A study of Homo sapiens with 24 samples.

Results

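The 9 genes described here encode the invariant chain and the machinery that loads peptide onto MHC class II molecules, namely CD74, the HLA-DM chains (HLA-DMA and HLA-DMB), the HLA-DO chains (HLA-DOA and HLA-DOB), and CTSS, CTSL2, LGMN and IFI30. They were found by the gene name that the array files give each probe, which returned 17 probes, out of 30142 gene names and 41000 probes in all. HLA-DOA had 5 probes. The other HLA genes and CTSS had 2 each, and the remaining genes had 1 each. The rule uses gene names and no measured value, and all 17 probes were kept whatever their brightness.

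RNA came from 4 established cell lines of diffuse large B-cell lymphoma (DLBCL). DB and K422 belong to the germinal centre B-cell-like (GCB) subtype, and HBL-1 and OCI-Ly3 to the activated B-cell-like (ABC) subtype. Each line was nucleofected with 1 µM of either of 2 siRNAs against the transcription factor FOXP1 (siFOXP1 #1 and siFOXP1 #2) or with a non-targeting control siRNA (siCtrl), and was harvested at 48 h in 3 independent experiments. Each of the 24 arrays held siFOXP1 RNA in Cy3 and siCtrl RNA of the same line in Cy5, so each line had 6 arrays. The dyes were never exchanged, so within a line a dye preference of a probe cannot be told apart from silencing. A preference of equal size in all lines drops out of a difference between lines. Each subtype was represented by 2 lines.

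MHC class II molecules are assembled in the endoplasmic reticulum with the invariant chain CD74, which fills the peptide groove and steers the complex to the endocytic pathway. There, lysosomal proteases shorten the invariant chain to a short remnant called CLIP, and HLA-DM, a dimer of HLA-DMA and HLA-DMB, exchanges CLIP for antigenic peptide. HLA-DO, a dimer of HLA-DOA and HLA-DOB made mainly by B cells, binds HLA-DM and restrains it. Cathepsin S (CTSS) is the protease that trims the invariant chain in B cells, and cathepsin V (listed under its older symbol CTSL2) does the same in thymic epithelium. Legumain (LGMN, asparagine endopeptidase) cuts after asparagine in antigens and in proteases, and the thiol reductase GILT (IFI30) opens disulphide bonds of antigens in the lysosome. The transcription factors RFX, CREB and NF-Y, with the coactivator CIITA, drive the class II chains and also CD74 and the HLA-DM genes through a conserved set of promoter boxes.

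Probe positions were given by the array files on hg18, and each probe is 60 bases long. The HLA-DM and HLA-DO probes lay in the class II region of chromosome 6, all on the minus strand, from HLA-DOB (A_23_P30736, chr6:32888641-32888700) to HLA-DOA (A_23_P302386, chr6:33084063-33084122). The HLA-DMB probes were A_32_P351968 at chr6:33010482-33010541 and A_24_P481844 at chr6:33011789-33011848, and the HLA-DMA probes A_23_P42306 at chr6:33024544-33024603 and A_24_P50245 at chr6:33025396-33025455. The CD74 probe (A_23_P70095) lay at chr5:149772415-149772474, the CTSL2 probe (A_23_P146456) at chr9:98834973-98835032 and the IFI30 probe (A_23_P153745) at chr19:18149840-18149899, the latter on the plus strand. The LGMN probe (A_23_P25994) spanned 1846 bases at chr14:92245924-92247769 and the CTSS probe A_23_P46141 spanned 2186 bases at chr1:148986969-148989154. The HLA-DOA probe A_23_P30927 spanned 298 bases at chr6:33082552-33082849, so each of these probes crosses an intron. An hg18 gene annotation was not used here, so the exons that the other probes lie in are not named. The 4 probes below carry much of what follows, and the capital letters in the CD74 probe, bases 18 to 20, are the start codon from which the shorter p33 form of the invariant chain is translated.
CD74 (A_23_P70095): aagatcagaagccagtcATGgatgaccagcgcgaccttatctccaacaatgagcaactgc
HLA-DMA (A_24_P50245): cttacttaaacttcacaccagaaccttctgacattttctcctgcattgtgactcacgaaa
HLA-DOA (A_24_P354800): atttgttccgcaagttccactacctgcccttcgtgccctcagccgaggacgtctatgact
LGMN (A_23_P25994): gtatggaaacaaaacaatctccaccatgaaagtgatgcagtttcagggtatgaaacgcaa

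The 250 bases before the RefSeq start of transcription (GRCh38.p14, minus strand for all 5 genes) are shown for CD74 and the HLA members, each of which was called higher in at least 1 ABC-DLBCL line. The windows lie at chr5:150412911-150413160 for CD74, chr6:32953098-32953347 for HLA-DMA, chr6:32941029-32941278 for HLA-DMB, chr6:33009592-33009841 for HLA-DOA and chr6:32817003-32817252 for HLA-DOB. Capitals mark CCAAT, the core of the Y box that NF-Y binds, TGACG, the core of the X2 box that CREB binds, and CTGATGATG, each on either strand (ATTGG is CCAAT read on the other strand).
CD74: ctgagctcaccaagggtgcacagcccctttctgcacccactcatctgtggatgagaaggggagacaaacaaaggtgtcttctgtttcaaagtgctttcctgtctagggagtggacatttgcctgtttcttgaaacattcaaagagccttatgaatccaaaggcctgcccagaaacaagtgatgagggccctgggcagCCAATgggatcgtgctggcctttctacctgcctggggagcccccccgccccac
HLA-DMA: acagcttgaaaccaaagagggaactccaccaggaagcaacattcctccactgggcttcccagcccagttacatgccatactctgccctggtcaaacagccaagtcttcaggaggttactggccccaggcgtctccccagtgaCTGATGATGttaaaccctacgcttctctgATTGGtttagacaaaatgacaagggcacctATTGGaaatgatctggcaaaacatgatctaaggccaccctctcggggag
HLA-DMB: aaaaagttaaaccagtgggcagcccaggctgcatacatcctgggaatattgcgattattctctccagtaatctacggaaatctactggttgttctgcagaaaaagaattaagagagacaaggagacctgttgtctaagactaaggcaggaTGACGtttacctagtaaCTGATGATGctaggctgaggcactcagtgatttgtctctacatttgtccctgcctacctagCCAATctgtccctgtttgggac
HLA-DOA: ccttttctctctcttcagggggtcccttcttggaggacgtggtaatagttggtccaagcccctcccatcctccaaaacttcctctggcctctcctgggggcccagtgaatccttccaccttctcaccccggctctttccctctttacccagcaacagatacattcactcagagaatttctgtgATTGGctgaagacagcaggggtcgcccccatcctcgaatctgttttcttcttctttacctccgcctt
HLA-DOB: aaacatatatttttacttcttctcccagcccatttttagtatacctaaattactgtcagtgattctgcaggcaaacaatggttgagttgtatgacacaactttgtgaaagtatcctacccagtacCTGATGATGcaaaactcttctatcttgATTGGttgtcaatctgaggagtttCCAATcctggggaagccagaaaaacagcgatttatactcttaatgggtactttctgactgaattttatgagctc

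A promoter was found in the RefSeq table for 7 of the 9 members, and the promoters of CTSS and LGMN were not analysed here. All 7 windows held CCAAT, against 32% of 35116 promoters of the same length. It lay 53 bases before the start in CD74, 22 in HLA-DMB, 67 in HLA-DOA, 79 and 49 in HLA-DMA, 98 and 74 in HLA-DOB, 76 in CTSL2 and 183 in IFI30. TGACG was present in 2 windows, at 100 bases in HLA-DMB and 127 in CTSL2, against 21.2% of all promoters. CTGATGATG, a string added after these sequences had been read, was present in 3 windows, at 108 bases before the start in HLA-DMA, 83 in HLA-DMB and 125 in HLA-DOB, against 0.222% of all promoters. The forkhead strings TGTTTAC (2.98% of all promoters), TATTTGT (3.18%) and TATTTAT (4.6%), an interferon-response string (GAAA, any 2 bases, GAAA, 3.02%) and the STAT string TTCNNNGAA (6.57%) were in 0 of the 7 windows. A match describes the letters only, and a missing match concerns only these 250 bases.

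Before the members, the label of each line and the silencing were checked. The B cell markers MS4A1, CD79A, CD79B, PAX5 and CD22 were well above background on all arrays of every line. Of the 5 germinal centre markers, all were detected on every array of DB and K422, BCL6 and LMO2 also on every array of HBL-1 and OCI-Ly3, and MME on none of these. Of the 5 activated B cell markers, all were detected on every array of HBL-1 and OCI-Ly3, PIM1 and PTPN1 also on every array of DB and K422 and ENTPD1 on every DB array, whereas IRF4 and CCND2 were detected on no array of DB or K422. Of the 4 T cell markers, CD3D, CD3E and CD3G were well above background on all K422 arrays, where levels of the list ran from 3.76 to 12.8 on the log2 scale. CD3E was detected on all arrays of HBL-1 and OCI-Ly3 too, while CD3D and CD3G were never well above background in the other lines. Levels of the list reached 5.85 in HBL-1, 5.33 in OCI-Ly3 and 4.96 in DB. Of the 4 monocyte and macrophage markers, CSF1R was detected on all arrays of every line and FCGR3A on none. FOXP1 itself fell in every line on both of its probes (chr3:71091098-71091157 and chr3:71088711-71088770), with means of 6 arrays from -2.03 to -1.34 on the log2 scale, and on A_23_P155257 it gave -1.96 ± 0.54 (SD) in OCI-Ly3, -1.74 ± 0.55 in HBL-1, -1.34 ± 0.47 in K422 and -2.0 ± 0.79 in DB. The share of probes well above background in at least 1 channel ran from 57.3% to 64.5% over the arrays, whose number limits the precision.

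Levels in siCtrl cells are given as log2 of the Cy5 signal after the arrays had been scaled to a common brightness (mean ± SD of 3 replicates). On the brightest probe of each gene, the mean was lowest in DB for CD74, HLA-DMA, HLA-DMB, HLA-DOA, CTSL2 and IFI30. It was lowest in HBL-1 for HLA-DOB and in K422 for CTSS, and LGMN was well above background on all arrays of OCI-Ly3 only. Some of these steps were small. The levels can be compared between lines for the same probe, but not between probes. In these bulk samples fewer expressing cells and less RNA per cell cannot be told apart. Of the 17 member probes, 8 were higher and 2 lower in OCI-Ly3 than in DB at an adjusted p under 0.05 (limma) and a difference of at least 1, where 12.3% and 15.1% of all probes were. Of the same probes, 2 were higher and 3 lower in HBL-1 than in K422, against 11.9% and 14% of all probes.

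CD74, the invariant chain, was lowest in DB, at 9.66, 9.84 and 9.84 in the 3 replicates (9.78 ± 0.10), and highest in OCI-Ly3, at 12.54, 12.67 and 12.59 (12.60 ± 0.07). K422 (11.76 ± 0.12) and HBL-1 (11.75 ± 0.15) lay between them and overlapped each other. OCI-Ly3 exceeded DB by 7.09-fold (adjusted p = 4.45e-09), HBL-1 exceeded DB by 3.92-fold (adjusted p = 7.91e-08) and K422 exceeded DB by 3.95-fold (adjusted p = 1.03e-07). The HLA-DOA probe A_24_P354800 gave DB the lowest place too, at 9.04 ± 0.04, with HBL-1 at 11.41 ± 0.33, K422 at 11.77 ± 0.21 and OCI-Ly3 at 12.40 ± 0.05. OCI-Ly3 exceeded DB by 10.3-fold on this probe (adjusted p = 2.06e-08), and HBL-1 and K422 overlapped. A second bright HLA-DOA probe, A_32_P356316, gave a smaller step between OCI-Ly3 (13.09 ± 0.07) and DB (11.21 ± 0.35), of 3.66-fold (adjusted p = 1.04e-05). The probe A_24_P332981 was not well above background on any DB array, which makes OCI-Ly3 at least 1.81-fold higher there. With normexp and loess before scaling its log2 difference was 0.40 against 2.45 and the call was lost, so this bound holds for the deposited signals only. A_23_P30927, well above background on 1 of 6 DB arrays, put OCI-Ly3 over DB by 6.09-fold (adjusted p = 1.47e-05). Its log2 difference of 2.61 was 0.97 under the same setting, and its call was lost too.

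HLA-DOB, the other chain of HLA-DO, followed the opposite order. On the probe A_23_P30736 its level was 12.17, 11.79 and 11.83 in DB (11.93 ± 0.21), 10.21 ± 0.51 in K422, 8.08 ± 0.08 in OCI-Ly3, and 7.10, 6.44 and 6.54 in HBL-1 (6.70 ± 0.36). No replicate of a line overlapped one of another line, and all 6 differences between lines were called. DB exceeded HBL-1 by 37.6-fold (adjusted p = 1.81e-08), DB exceeded OCI-Ly3 by 14.4-fold (adjusted p = 2.45e-07) and K422 exceeded HBL-1 by 11.4-fold (adjusted p = 6.30e-07). The second HLA-DOB probe, A_24_P911788, was well above background in siCtrl cells on 2 of 6 DB arrays, 1 of 6 OCI-Ly3 arrays and none of K422 or HBL-1, and made DB at least 1.58-fold higher than HBL-1. With normexp and loess before scaling, the log2 difference of this probe between OCI-Ly3 and DB was -0.21 against -1.48. The bound is therefore given for the deposited signals only. The 2 chains of the HLA-DO dimer were therefore ranked differently across the lines, with OCI-Ly3 first for HLA-DOA and DB first for HLA-DOB.

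CTSL2 separated the subtypes, at 6.02 ± 0.45 in DB and 6.48 ± 0.17 in K422 against 9.40 ± 0.27 in HBL-1 and 8.98 ± 0.17 in OCI-Ly3. HBL-1 exceeded K422 by 7.57-fold (adjusted p = 1.06e-06) and OCI-Ly3 exceeded DB by 7.78-fold (adjusted p = 8.02e-07), whereas the lines of a subtype did not pass the test (adjusted p = 0.119 between K422 and DB and 0.162 between OCI-Ly3 and HBL-1). LGMN was well above background on all 6 OCI-Ly3 arrays (7.90 ± 0.01), on 1 of 6 K422 arrays and on none of DB or HBL-1. OCI-Ly3 was at least 8.91-fold higher than DB (adjusted p = 8.19e-11) and at least 17-fold higher than HBL-1 (adjusted p = 9.79e-11). With normexp and loess before scaling the differences between OCI-Ly3 and DB were smaller on the log2 scale, at 1.77 against 2.96 for CTSL2 and 1.67 against 5.63 for LGMN, so the bounds for LGMN hold for the deposited signals only. IFI30 was bright in every line, at 14.84 ± 0.15 in OCI-Ly3, 14.74 ± 0.14 in HBL-1, 14.41 ± 0.30 in K422 and 13.64 ± 0.31 in DB. Only the steps from DB to HBL-1 (2.14-fold, adjusted p = 4.67e-04) and from DB to OCI-Ly3 (2.30-fold, adjusted p = 2.79e-04) passed both limits for IFI30.

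For HLA-DM and cathepsin S few differences between lines were called on the brighter probes, and more on the dimmer HLA-DMB and CTSS probes. HLA-DMA (A_23_P42306) lay at 11.88 ± 0.04 in DB, 11.96 ± 0.11 in OCI-Ly3, 12.77 ± 0.20 in K422 and 12.83 ± 0.20 in HBL-1, and no difference between lines reached 1 on either HLA-DMA probe. HLA-DMB (A_32_P351968) rose from 11.06 ± 0.13 in DB through 11.49 ± 0.18 in K422 and 11.80 ± 0.05 in OCI-Ly3 to 12.16 ± 0.14 in HBL-1, and HBL-1 exceeded DB by 2.14-fold (adjusted p = 2.01e-05). On the dimmer HLA-DMB probe, A_24_P481844, HBL-1 exceeded K422 by 2.14-fold (adjusted p = 4.31e-04) and OCI-Ly3 exceeded K422 by 2.05-fold (adjusted p = 5.45e-04). With normexp and loess before scaling, its log2 difference between HBL-1 and K422 was 0.41 and the call was lost. CTSS (A_23_P46141) lay between 12.04 ± 0.24 in K422 and 12.50 ± 0.04 in HBL-1, with adjusted p-values of 0.071 or more for every comparison of lines. The second CTSS probe, A_24_P242646, put HBL-1 (7.40 ± 0.54) above OCI-Ly3 (5.90 ± 0.07) by 2.84-fold (adjusted p = 2.58e-04), a pair of lines that did not pass the test on the first probe (1.25-fold, adjusted p = 0.198). On that second probe HBL-1 also exceeded DB by 5.62-fold (adjusted p = 3.78e-06) and K422 exceeded DB by 3.54-fold (adjusted p = 5.57e-05). It was well above background in DB on 3 of 6 arrays.

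**Figure D1:**
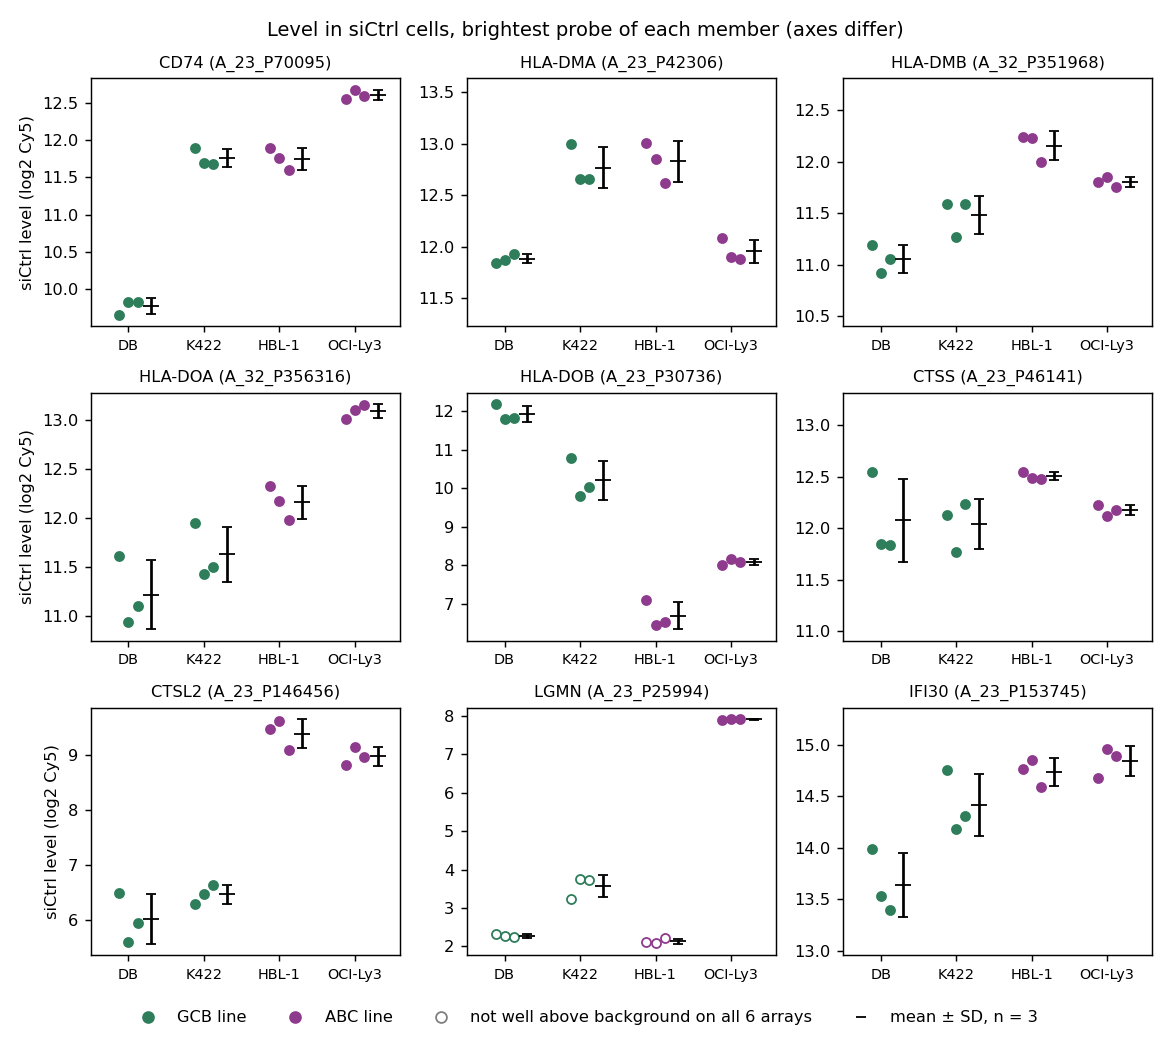
Log2 Cy5 level in siCtrl cells of the 4 lines for the brightest probe of each of the 9 genes, with a point for each of the 3 replicates and the mean ± SD beside them. Axes differ between panels, and open points mark a line in which the probe was not well above background on all 6 arrays. CD74 (9.78) and HLA-DOA A_32_P356316 (11.21) are lowest in DB, HLA-DOB A_23_P30736 is lowest in HBL-1 (6.70), and LGMN is above background throughout only in OCI-Ly3 (7.90).

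The response to FOXP1 silencing was measured as the log2 ratio of siFOXP1 over siCtrl. A probe was called where the limma fit over all 24 arrays gave an adjusted p under 0.05 and a mean change of at least 0.5 (1.41-fold). In DB 0 of the 17 member probes were called, where 1.32% of all probes were higher and 0.844% lower. An unadjusted p under 0.05 was reached there by 3 of the 17 and by 23.7% of all probes. The methods' t-test also called 0 members in DB, where it called 34 higher and 31 lower among 41000 probes. In K422 0 member probes were higher and 2 lower (2.32% and 1.93% of all probes). In HBL-1 4 were higher and 1 lower (5.54% and 4.33% of all probes). In OCI-Ly3 7 were higher and 0 lower (2.97% and 1.64% of all probes). The median over the 17 probes was 0.46 in OCI-Ly3, 0.23 in HBL-1, 0.07 in K422 and -0.02 in DB, and the median of all probes was 0 in each line.

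**Figure D2:**
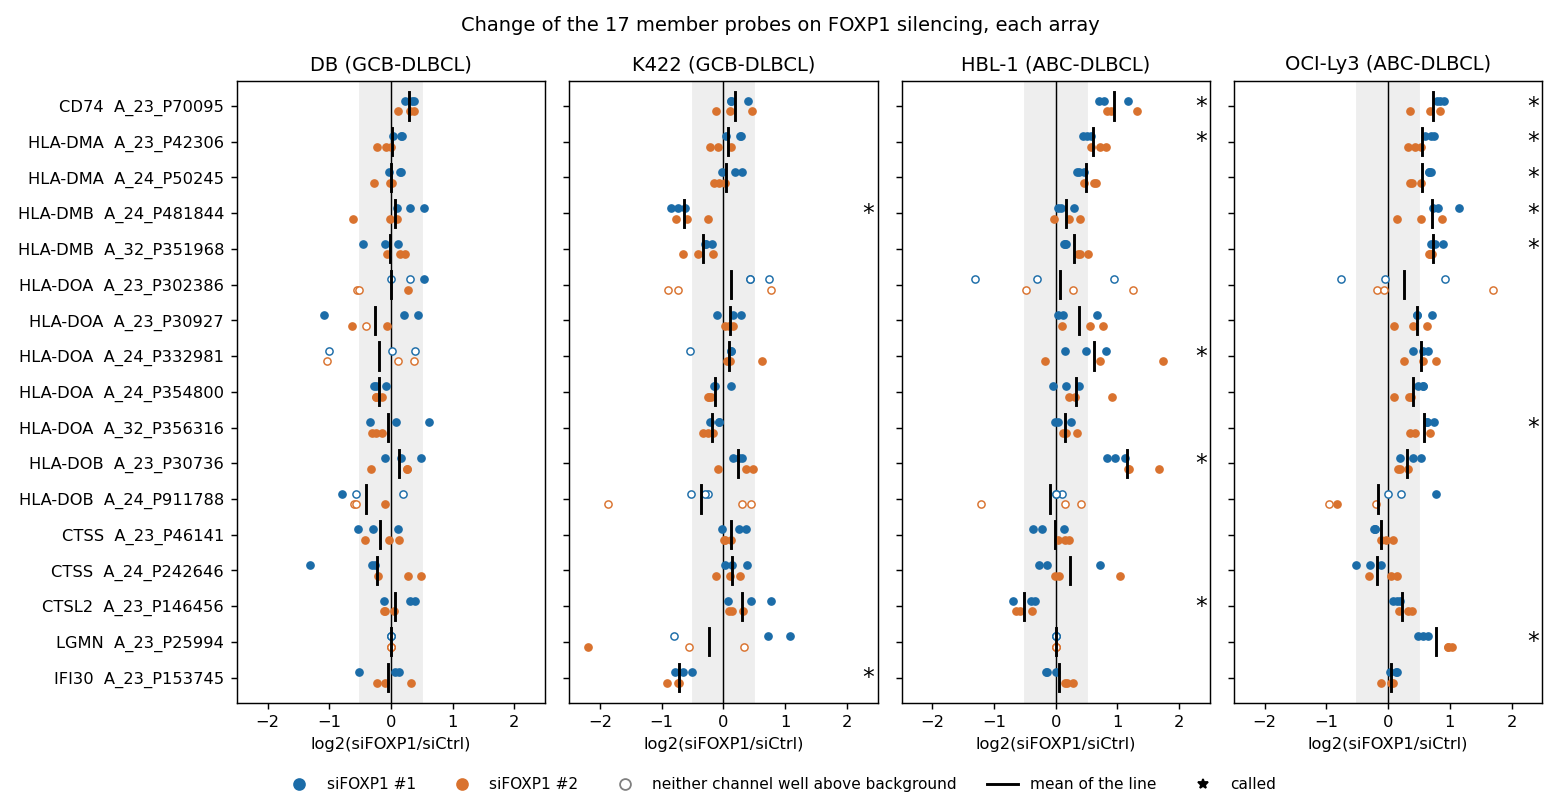
Log2 ratio of siFOXP1 over siCtrl of the 17 member probes on the 24 arrays, by line and siRNA. Black bars are the means of 6 arrays, the grey band spans the limits of -0.5 and 0.5, stars mark called probes and open points mark arrays with neither channel well above background. The HLA-DMA points of HBL-1 and OCI-Ly3 (0.32 to 0.82 on A_23_P42306) lie above all those of DB and K422 (-0.23 to 0.29), and the IFI30 points of K422 (-0.92 to -0.51) lie below those of HBL-1 and OCI-Ly3.

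CD74 was higher after silencing in both ABC-DLBCL lines. In HBL-1 its log2 ratio ran from 0.70 through a median of 0.86 to 1.31 over the 6 arrays, a mean of 0.95 ± 0.24 (SD) or 1.93-fold (adjusted p = 1.43e-07). In OCI-Ly3 it ran from 0.35 through 0.81 to 0.91, a mean of 0.73 ± 0.20 or 1.66-fold (adjusted p = 7.66e-06). Every array of these 2 lines was above 0. In DB the ratio ran from 0.12 through 0.32 to 0.38 (mean 0.29 ± 0.10, adjusted p = 0.0246), which was above 0 on all 6 arrays but under the limit of 0.5. In K422 it ran from -0.11 through 0.13 to 0.47 (mean 0.19 ± 0.21, adjusted p = 0.131). The lowest OCI-Ly3 array therefore overlapped the highest GCB-DLBCL arrays, whereas the lowest HBL-1 array did not.

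HLA-DMA, the alpha chain of the peptide editor HLA-DM, separated the subtypes on every array. On A_23_P42306 it ran from 0.44 through 0.57 to 0.82 in HBL-1 (mean 0.60 ± 0.14, 1.52-fold, adjusted p = 5.99e-08) and from 0.32 through 0.56 to 0.75 in OCI-Ly3 (mean 0.55 ± 0.16, 1.47-fold, adjusted p = 5.80e-07). In DB it ran from -0.23 through 0.02 to 0.17 (mean 0.01 ± 0.15) and in K422 from -0.21 through 0.09 to 0.29 (mean 0.07 ± 0.20). The 12 ABC-DLBCL arrays lay above the 12 GCB-DLBCL arrays on both HLA-DMA probes, 2 of the 17 member probes, where 0.0994% of all probes had such a gap, and 0 member probes had the reverse gap (0.0646% of all probes). With normexp background correction and median centring the A_23_P42306 value was 0.31 in HBL-1 (adjusted p = 0.136) and 0.50 in OCI-Ly3 (adjusted p = 0.0663), and both calls were lost. The second probe, A_24_P50245, gave 0.48 ± 0.13 in HBL-1 (adjusted p = 4.70e-07, under the limit of 0.5), 0.55 ± 0.15 in OCI-Ly3 (adjusted p = 4.99e-07), -0.00 ± 0.15 in DB and 0.05 ± 0.17 in K422, and its OCI-Ly3 call was lost under the same setting (0.46, adjusted p = 0.0641).

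HLA-DMB, the beta chain of the same dimer, was called in OCI-Ly3 and in K422, in opposite directions. In OCI-Ly3 it rose on both probes, from 0.66 through 0.70 to 0.89 on A_32_P351968 (mean 0.73 ± 0.09, 1.66-fold, adjusted p = 5.69e-07) and from 0.14 through 0.77 to 1.14 on A_24_P481844 (mean 0.70 ± 0.34, adjusted p = 1.05e-04). In HBL-1 the means were 0.29 ± 0.16 (adjusted p = 0.00146) and 0.16 ± 0.16 (adjusted p = 0.265), and neither reached 0.5. In K422 A_24_P481844 ran from -0.86 through -0.68 to -0.24 (mean -0.64 ± 0.22, 0.643-fold, adjusted p = 2.71e-04). The other probe ran there from -0.65 through -0.30 to -0.17 (mean -0.34 ± 0.18, adjusted p = 9.84e-04), so all 6 arrays were below 0 on both probes but only 1 probe passed the limit. In DB the means were 0.07 ± 0.39 and -0.02 ± 0.25. The dim probe A_24_P481844 was designed on a different cDNA record from A_32_P351968, and its K422 value was -0.16 with normexp and loess, -0.15 with normexp and median centring and -0.54 with siFOXP1 #2 alone (adjusted p = 0.119), each of which ended the call. Its OCI-Ly3 call was lost under the same settings (0.49, 0.50 and 0.51).

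HLA-DOA, the alpha chain of HLA-DO, shifted upward in OCI-Ly3 on its bright probes. On A_32_P356316 the ratio ran from 0.36 through 0.63 to 0.74 (mean 0.58 ± 0.15, 1.49-fold, adjusted p = 6.09e-05), a call lost with normexp and median centring (0.40) and with siFOXP1 #2 alone (0.49). On A_24_P354800 it ran from 0.10 through 0.43 to 0.57 (mean 0.40 ± 0.18, adjusted p = 6.07e-04), under the limit. In HBL-1 the same probes gave 0.15 ± 0.13 (adjusted p = 0.177) and 0.33 ± 0.32 (adjusted p = 0.00169). The HBL-1 call for HLA-DOA came from the dim probe A_24_P332981, which ran from -0.17 through 0.60 to 1.73 (mean 0.62 ± 0.66, adjusted p = 0.0362), was well above background in siCtrl cells on 4 of 6 arrays, and lost its call under 15 of 25 other settings, the replicate block among them (adjusted p = 0.0564), with values of 0.30 without HBL-1 replicate 1 and 0.94 without replicate 3. In K422 and DB the bright probes lay slightly below 0, at -0.18 ± 0.10 and -0.05 ± 0.36 on A_32_P356316 and at -0.14 ± 0.14 and -0.20 ± 0.08 on A_24_P354800, with adjusted p-values of 0.0768 or more. A_23_P302386 was near background in all lines and gave means from 0.01 in DB to 0.26 in OCI-Ly3, none of them called.

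HLA-DOB, the beta chain of HLA-DO, gave the largest mean change of any member probe, in HBL-1, the line with its lowest control level. On A_23_P30736 the ratio ran there from 0.83 through 1.15 to 1.68 (mean 1.16 ± 0.29, 2.24-fold, adjusted p = 7.61e-08), with every array above those of the other 3 lines. The value was 0.69 with normexp and loess and 0.59 with normexp and median centring, still called. In OCI-Ly3 it ran from 0.15 through 0.26 to 0.53 (mean 0.30 ± 0.15, adjusted p = 0.032), in K422 from -0.08 through 0.27 to 0.48 (mean 0.24 ± 0.19, adjusted p = 0.082) and in DB from -0.33 through 0.21 to 0.49 (mean 0.13 ± 0.29, adjusted p = 0.472). These 3 lines overlapped one another. HLA-DOB thus rose in HBL-1 without a rise of HLA-DOA on its bright probes past the limit, and HLA-DOA rose in OCI-Ly3 without HLA-DOB reaching it. The second HLA-DOB probe, A_24_P911788, was not well above background in either channel on any K422 or HBL-1 array, and its means from -0.40 in DB to -0.09 in HBL-1 were not called.

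Of the proteases, CTSS, cathepsin S, was called in no line on either probe. On A_23_P46141 it ran from -0.53 through -0.16 to 0.13 in DB (mean -0.17, 95% interval -0.34 to -0.01), from -0.01 through 0.08 to 0.36 in K422 (mean 0.13, interval -0.04 to 0.30), from -0.36 through 0.08 to 0.21 in HBL-1 (mean -0.01, interval -0.18 to 0.16) and from -0.22 through -0.17 to 0.08 in OCI-Ly3 (mean -0.12, interval -0.29 to 0.05). All 4 intervals on this probe lay between -0.5 and 0.5, in a fit that takes the paired arrays as separate values. On the dimmer probe A_24_P242646 the intervals were -0.56 to 0.11 in DB, -0.20 to 0.47 in K422, -0.10 to 0.57 in HBL-1 and -0.51 to 0.16 in OCI-Ly3. Those of DB, HBL-1 and OCI-Ly3 therefore do not exclude a change of 0.5. CTSL2, cathepsin V, fell in HBL-1, where it ran from -0.70 through -0.49 to -0.34 (mean -0.51 ± 0.15, 0.702-fold, adjusted p = 4.84e-05). The other lines were above 0 on average, at 0.07 ± 0.23 in DB, 0.31 ± 0.27 in K422 (adjusted p = 0.00823) and 0.22 ± 0.12 in OCI-Ly3 (adjusted p = 0.0533), all under the limit. The HBL-1 call was lost without HBL-1 replicate 1 (-0.44), with siFOXP1 #1 alone (-0.48) and with normexp and loess (-0.36). Every K422 and OCI-Ly3 array was above 0 and every HBL-1 array at -0.34 or below.

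LGMN, legumain, could be measured only in OCI-Ly3, where its ratio was 0.48, 0.65 and 0.56 with siFOXP1 #1 and 0.97, 1.03 and 0.97 with siFOXP1 #2 (mean 0.78 ± 0.24, 1.71-fold, adjusted p = 0.0213). All 6 arrays were above 0. The call was lost under 8 of 25 other settings, among them the replicate block (adjusted p = 0.0522) and leaving out any OCI-Ly3 replicate. Adjusted p ran from 8.94e-10 to 0.271 over the settings, and the call was kept with OCI-Ly3 fitted by itself. The main fit shares a common spread over all lines. On this probe the SDs by siRNA were 0.09 and 0.04 in OCI-Ly3 and 1.00 and 1.28 in K422. In DB and HBL-1 the deposited ratio was exactly 0 on every array, the value that the scanner software writes when neither channel is above background, and in K422 it ranged from -2.19 to 1.08 with siFOXP1 well above background on 2 of 6 arrays. The OCI-Ly3 value for LGMN thus has no measured counterpart in another line.

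IFI30, the lysosomal thiol reductase, was called lower in K422 and was called in no other line. In K422 its ratio ran from -0.92 through -0.73 to -0.51 (mean -0.72 ± 0.14, 0.607-fold, adjusted p = 4.09e-06), with both siRNAs past the limits (-0.65 ± 0.14 and -0.79 ± 0.11). In HBL-1 it ran from -0.15 through 0.07 to 0.29 (mean 0.05, 95% interval -0.10 to 0.21), and in OCI-Ly3 from -0.12 through 0.07 to 0.14 (mean 0.05, interval -0.10 to 0.21). In DB it ran from -0.52 through -0.01 to 0.33 (mean -0.05, interval -0.21 to 0.10). The K422 arrays lay below all those of the ABC-DLBCL lines and overlapped DB. K422 is also the line in which 3 T cell markers were above background on all arrays, of which CD3E was so in HBL-1 and OCI-Ly3 too. In K422 CD14 and CSF1R were the monocyte markers detected on all arrays, with levels of that list from 2.15 to 5.43. The top level of that list was higher in every other line (OCI-Ly3 8.01, DB 7.72, HBL-1 6.80). Each of those lines had CSF1R on all arrays as well, and OCI-Ly3 also had ITGAM. The part of these markers in the IFI30 value was not tested.

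The difference in response between subtypes was taken as the mean of HBL-1 and OCI-Ly3 less the mean of DB and K422 in the same limma fit. Its intervals and p-values measure spread between arrays, not between lines of a subtype. The difference passed both limits upward on 6 of 17 member probes and downward on 0, against 1.35% and 0.82% of all probes. The size was 0.72 (95% interval 0.50 to 0.93, adjusted p = 2.31e-04) on HLA-DMB A_24_P481844 and 0.69 (0.56 to 0.82, adjusted p = 2.25e-06) on HLA-DMB A_32_P351968. It was 0.60 (0.43 to 0.77, adjusted p = 1.39e-04) on CD74, 0.54 (0.35 to 0.74, adjusted p = 0.0013) on HLA-DOB A_23_P30736, 0.54 (0.38 to 0.69, adjusted p = 1.25e-04) on HLA-DOA A_24_P354800 and 0.53 (0.43 to 0.63, adjusted p = 1.68e-06) on HLA-DMA A_23_P42306. For HLA-DMB the difference combined a rise in OCI-Ly3 with a fall in K422, for HLA-DOB it came mostly from HBL-1, and for HLA-DMA the lines of each subtype overlapped. The call was lost for HLA-DOA A_24_P354800 without HBL-1 replicate 1 (0.46), and for HLA-DOB without DB replicate 2 (0.46), K422 replicate 1 (0.49) or HBL-1 replicate 1 (0.48). With normexp and loess the difference was 0.37 on HLA-DMB A_24_P481844 and 0.24 on HLA-DOB, and with normexp and median centring 0.34 and 0.31, all under the limit. With normexp and median centring HLA-DMB A_32_P351968 (0.65) was the member probe still called. CTSS differed by -0.04 (interval -0.21 to 0.12) and 0.07 (-0.26 to 0.41) on its probes, and IFI30 by 0.44 (0.28 to 0.60, adjusted p = 0.0011), under the limit.

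Each scan session held a line of each subtype, DB with OCI-Ly3 and K422 with HBL-1, so the difference was also taken within each session. Between OCI-Ly3 and DB 6 of 17 member probes were called higher and 0 lower, against 0.99% and 0.451% of all probes. They were both HLA-DMA probes (0.54 and 0.55), both HLA-DMB probes (0.64 and 0.75) and the HLA-DOA probes A_24_P354800 (0.61) and A_32_P356316 (0.63). Between HBL-1 and K422 6 were called higher and 1 lower, against 2.19% and 2.05% of all probes. They were CD74 (0.76), HLA-DMA A_23_P42306 (0.53), HLA-DMB A_24_P481844 (0.80) and A_32_P351968 (0.63), HLA-DOB A_23_P30736 (0.92) and IFI30 (0.78), with CTSL2 (-0.82) lower. HLA-DMA A_23_P42306 and both HLA-DMB probes were the ones called within both sessions. Leaving out 1 replicate ended some of these calls. HLA-DMA A_23_P42306 gave 0.49 between OCI-Ly3 and DB without DB replicate 2 and 0.50 without OCI-Ly3 replicate 2, and between HBL-1 and K422 it gave 0.48 without K422 replicate 2 and 0.50 without HBL-1 replicate 3. Between OCI-Ly3 and DB the call was also lost without DB replicate 2 for HLA-DMA A_24_P50245 (0.47) and HLA-DMB A_24_P481844 (0.47), and for the latter without OCI-Ly3 replicate 1 (0.67) or 2 (0.57) and with the replicate block (adjusted p = 0.0642). With arrays of the same number averaged, the calls of HLA-DOA A_24_P354800 (adjusted p = 0.0673) and A_32_P356316 (adjusted p = 0.0553) between OCI-Ly3 and DB were lost too. With normexp and median centring every upward call within a session was lost. Between HBL-1 and K422 that setting gave 0.22 on HLA-DMB A_24_P481844 and 0.42 on HLA-DOB, normexp and loess gave 0.30 and 0.40, and siFOXP1 #1 alone gave 0.30 on HLA-DMA A_23_P42306. CTSL2 gave -0.52 there with normexp and loess. CD74 gave 0.44 (95% interval 0.20 to 0.68, adjusted p = 0.0484) between OCI-Ly3 and DB, in the same direction and under the limit.

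In each session a single slide carried arrays of both lines, replicate 3 of the GCB-DLBCL line and replicate 1 of the ABC-DLBCL line, and allowed a comparison of 2 arrays with 2 on 1 slide, with no test. On these slides CD74 differed by 0.60 in both sessions, HLA-DMA A_23_P42306 by 0.47 and 0.44, HLA-DMB A_32_P351968 by 0.53 and 0.70, and HLA-DOA A_24_P354800 by 0.69 and 0.81 (OCI-Ly3 less DB, then HBL-1 less K422). HLA-DOB A_23_P30736 differed by -0.01 and 1.04, so its difference was seen on the HBL-1 slide alone. IFI30 differed by 0.48 and 0.77, and CTSL2 by 0.19 and -0.72.

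**Figure D3:**
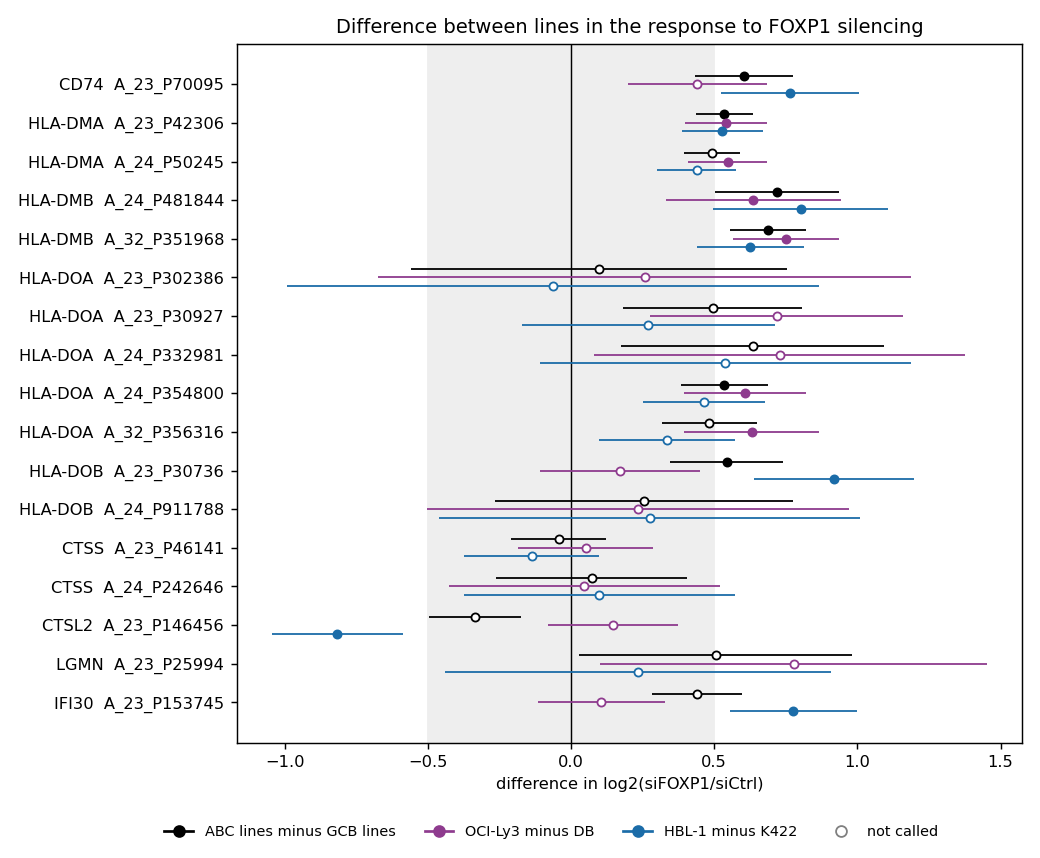
Difference in log2 response between ABC-DLBCL and GCB-DLBCL lines with its 95% interval for each member probe, over both subtypes (black) and within each scan session. The intervals measure spread between arrays, not between lines of a subtype. Filled points were called, the grey band spans -0.5 to 0.5, and LGMN was at background in the lines other than OCI-Ly3. HLA-DMA A_23_P42306 (0.53, 0.54 and 0.53) and HLA-DMB A_32_P351968 (0.69, 0.75 and 0.63) stand at similar distances from 0 in all 3 comparisons, while HLA-DOB A_23_P30736 (0.92), IFI30 (0.78) and CTSL2 (-0.82) stand apart between HBL-1 and K422.

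The FOXP1 probe A_23_P155257 fell further with siFOXP1 #2 than with #1 in every line, with differences (#2 less #1) of -1.40 in DB (adjusted p = 0.000341), -0.85 in K422 (adjusted p = 0.0284), -0.90 in HBL-1 (adjusted p = 0.0149) and -0.97 in OCI-Ly3 (adjusted p = 0.00761). On the other FOXP1 probe it passed in DB (-1.01, adjusted p = 0.00902) and had adjusted p-values from 0.153 to 0.302 in the remaining lines. The siRNAs were compared on the members at matched dose and time. The difference between siRNAs was called on 0 of 17 member probes in each line, against 0.166% of all probes in OCI-Ly3, 0.185% in HBL-1, 0.134% in K422 and 0.324% in DB (limma). At an unadjusted p under 0.05 the difference passed on 2 of 17 member probes each in OCI-Ly3 and HBL-1, 3 in K422 and 4 in DB. Of all probes 6.41% passed in OCI-Ly3, 5.62% in HBL-1, 6.74% in K422 and 9.88% in DB. CD74 gave 0.89 ± 0.25 (n = 3) with #1 and 1.01 ± 0.26 with #2 in HBL-1, a difference of 0.12 (95% interval -0.22 to 0.47). In OCI-Ly3 it gave 0.84 ± 0.06 and 0.62 ± 0.24, a difference of -0.22 (interval -0.57 to 0.12).

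Which siRNA gave the larger mean was not the same in both ABC-DLBCL lines, a description with no test of its own. In HBL-1 the mean was larger with siFOXP1 #2 for CD74, for both HLA-DMA probes (0.70 against 0.50 on A_23_P42306, difference interval -0.0026 to 0.40) and for HLA-DOB A_23_P30736 (1.35 against 0.97, interval -0.02 to 0.77). In OCI-Ly3 it was larger with #1 for CD74, for HLA-DMA A_23_P42306 (0.68 against 0.42, interval -0.46 to -0.06), for HLA-DMB A_24_P481844 (0.90 against 0.51, interval -0.82 to 0.05) and for HLA-DOA A_32_P356316 (0.66 against 0.49, interval -0.51 to 0.16). The intervals are unadjusted, and the adjusted p-values of these differences were 0.545 or more. With siFOXP1 #2 alone HLA-DMA did not reach 0.5 in OCI-Ly3, and with #1 alone A_24_P50245 did not reach it in HBL-1. The labels name a control sample for each array and do not say whether the arrays of a replicate shared a control extract, so the values for the siRNAs may not be independent.

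**Figure D4:**
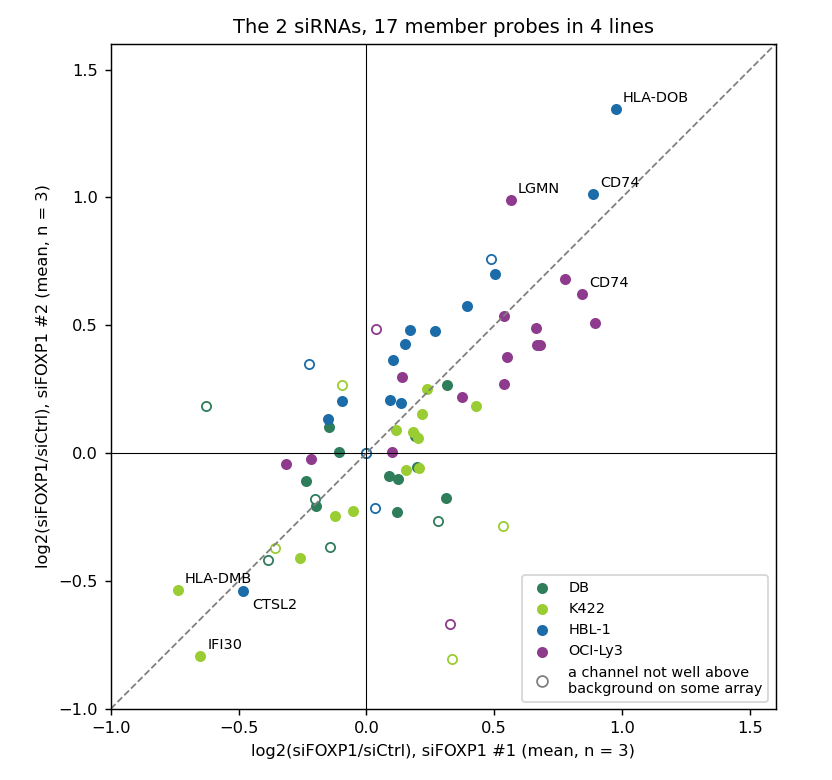
Mean log2 response to siFOXP1 #1 (x axis) and siFOXP1 #2 (y axis), n = 3 arrays each, of the member probes in each line, with the dashed line of equal response. Open points mark probes with a channel not well above background on some array. CD74 (0.89 and 1.01) and HLA-DOB A_23_P30736 (0.97 and 1.35) are above 0 with both siRNAs in HBL-1, IFI30 is below 0 with both in K422 (-0.65 and -0.79), and LGMN in OCI-Ly3 stands at 0.56 and 0.99.

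The rest of the pathway was read from lists of genes chosen with earlier results of these data known, all of whose genes were on the array. Their counts stand beside the shares of all probes given above for each line, of which the largest were 5.54% higher and 4.33% lower in HBL-1. Of 21 probes of the classical class II chains (11 genes), which present the peptides that the members load, 10 were called higher and 0 lower in OCI-Ly3, and 4 higher and 0 lower in HBL-1. K422 had 1 lower and DB 3 lower, of which the HLA-DQB1 probe was not well above background on any DB array, and neither had a higher one. HLA-DQB1 A_24_P239676 gave 1.25 ± 0.31 (adjusted p = 9.71e-05) in OCI-Ly3 against 0.70 ± 0.47 in HBL-1 (adjusted p = 0.00607), and HLA-DRB1 A_24_P343233 gave 0.60 ± 0.22 in OCI-Ly3 against 0.41 ± 0.24 in HBL-1. The median over the 21 probes was 0.52 in OCI-Ly3, 0.32 in HBL-1, -0.14 in K422 and -0.21 in DB. Transcripts of near-identical HLA genes can hybridise to each other's probes, so single HLA-DR and HLA-DQ genes are uncertain.

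Of 19 probes of the class II transcription factors (8 genes), 2 were higher and 1 lower in OCI-Ly3. HBL-1 and DB had 2 lower each and none higher, and 0 were called in K422. CIITA, the coactivator, gave 0.87 ± 0.12 on A_23_P353478 (adjusted p = 1.75e-04) in OCI-Ly3 but 0.17 ± 0.31 in HBL-1 (adjusted p = 0.402) and -0.28 ± 0.25 in K422 (adjusted p = 0.17). Its other probe called in OCI-Ly3, A_23_P33384, gave 0.70 (adjusted p = 0.0104), and its call in DB was on arrays where neither channel was well above background. CD74, HLA-DMA and HLA-DOB were called higher in HBL-1, where no CIITA probe was called. A missing call does not show that CIITA was unchanged, and its part in these changes was not tested. RFXAP, a subunit of the RFX complex, fell in OCI-Ly3 (-0.59 ± 0.12), HBL-1 (-0.52 ± 0.28) and DB (-0.55 ± 0.22) and gave -0.46 ± 0.16 in K422, under the limit. CREB1, which binds the X2 box, fell in HBL-1 (-0.55 ± 0.28, adjusted p = 0.002).

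Among 19 probes of other proteases of the endocytic pathway (12 genes), 4 were higher and 2 lower in HBL-1, 1 was higher in OCI-Ly3 and 0 were called in DB or K422. In HBL-1 the aspartic protease cathepsin D (CTSD) gave 0.60 ± 0.21, tripeptidyl peptidase TPP1 gave 0.81 ± 0.33 and the protective protein CTSA gave 0.54 ± 0.26, while cathepsin L (CTSL1) gave -0.56 ± 0.18, in the same direction as its relative CTSL2. The remaining calls, CTSC in HBL-1 and CTSO in OCI-Ly3, had siCtrl channels not well above background on any array. Among cysteine protease inhibitors (5 probes), CSTB, cystatin B, rose in HBL-1 by 0.70 ± 0.27 (adjusted p = 2.53e-08). CST7, cystatin F, the other call of that list and named after its values were seen, was lower in HBL-1 on a probe well above background in siCtrl cells on 5 of 6 arrays and in siFOXP1 cells on none, so the size of its change was not measured. Of 23 probes of lysosomal membrane and biogenesis genes, 1 was called in any line, LAMP3 in HBL-1 (-0.51 ± 0.61, adjusted p = 0.0198).

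Partners and turnover factors of the invariant chain (8 genes with a probe each) gave 2 higher and 1 lower in K422, 1 higher in each ABC-DLBCL line and 1 lower in DB. The lower call in K422, CD44, was well above background in siCtrl cells on 0 of 6 arrays and in siFOXP1 cells on 1, and the OCI-Ly3 call, MARCH8, in siCtrl cells on 0 and in siFOXP1 cells on 5 (both named after their values were seen). CXCR4, which forms signalling complexes with surface CD74, rose in HBL-1 by 2.43 ± 0.87 (adjusted p = 1.42e-08) and in K422 by 1.16 ± 0.60 (adjusted p = 1.09e-04), and gave -0.22 ± 0.32 in OCI-Ly3. CD44, the signalling partner of CD74 as a receptor for the cytokine MIF, fell in DB (-0.61 ± 0.41, adjusted p = 0.00521). MARCH1, a ubiquitin ligase that removes class II molecules from the surface, rose in K422 (0.67 ± 0.12, adjusted p = 9.10e-05). Among 15 probes of genes that answer to interferon gamma (12 genes), as CIITA and IFI30 do, 3 were higher and 1 lower in each ABC-DLBCL line, 2 were higher in K422, both of them SOCS1 probes, and 0 were called in DB. The third OCI-Ly3 call upward, IDO1, named after its values were seen, was well above background in neither channel on any array. GBP2 rose in HBL-1 (0.94 ± 0.18) and OCI-Ly3 (0.93 ± 0.18), while GBP1 fell in HBL-1 (-0.85 ± 0.46) and rose in OCI-Ly3 (0.55 ± 0.30). CXCL9 fell in OCI-Ly3 (-1.33 ± 0.12), and SOCS1 rose in HBL-1 (0.74 ± 0.42) and K422 (0.51 ± 0.21).

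As a description with no test, the log2 ratios of the brightest probe of each member were correlated over the 24 arrays, which share lines, slides and possibly controls. HLA-DMA and CD74 gave Pearson's r = 0.89, HLA-DOA and HLA-DMB gave 0.84, and CD74 and HLA-DOB gave 0.71. CTSL2 ran opposite to HLA-DOB (r = -0.76) and CD74 (r = -0.67), and CTSS gave values between -0.50 (with IFI30) and 0.33 (with HLA-DOB). Among 19475 probes well above background in both channels on at least 20 arrays, the genes closest to CD74 were CD79A (r = 0.92), a chain of the B cell receptor, CSNK1E (0.89), HLA-DMA (0.89), CUL7 (0.89) and WDR59 (0.88). Closest to HLA-DMA were ICAM3 (0.91), ILK (0.90) and CD74, with WDR59 and an unnamed transcript next. Closest to CTSS were CNOT6L (0.85), HSD17B11 (0.83), LMO4 (0.81), ZC3H7A (0.79) and FAM107B (0.79). Closest to IFI30 were DUSP2 (0.89), LSP1 (0.88), FADS1 (0.87) and CD52 (0.87), with an unnamed probe among them, and in K422 the mean log2 ratio was -0.87 for LSP1 and -0.97 for CD52.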

How the data were processed

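Each array was a two-colour Agilent whole genome array, and 24 arrays from 4 lines were used. Per the file headers, the scanner files were made with Agilent Feature Extraction 10.5.1.1 for DB and OCI-Ly3 and 10.7.3.1 for K422 and HBL-1, so each scan session held 1 line of each subtype. The authors' deposited log10 ratio of Cy5 over Cy3 was already background-corrected and dye-normalized by that software, and is set to 0 where neither channel is above background. The deposited intensity values of each channel, processed in the same way, gave the siCtrl levels. A second deposited table held the authors' log2 values of the same arrays, with scale and centring not stated, and its columns correlated with the sign-turned scanner ratios at r = 0.804 to 0.998. It was used as an alternative only.

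The log10 ratios were turned to log2 of siFOXP1 over siCtrl, without control spots or those the scanner software marked as outliers. Repeated spots of the same probe were averaged, and no dim probe was removed. The response was fitted with limma 3.58.1 (R 4.3.3) as 8 means, line by siRNA, over 24 arrays and 41000 probes, with Benjamini-Hochberg adjustment over all probes, and called at an adjusted p under 0.05 and a log2 change of at least 0.5. For siCtrl levels the Cy5 values were scaled between arrays (Aquantile), arrays of a replicate were averaged to 3 values per line, and the limit was 1. The scripts were tested on simulated data with 41000 probes, where changes of 0.6 in OCI-Ly3 were recovered for 83% of probes and those of 1.2 for 100%.

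The members and gene lists were chosen with earlier results of these data known. From each list, up to 4 genes with the largest called change in a line and well above background on its 6 arrays were named. Likeness used the brightest probe of CD74, HLA-DMA, CTSS and IFI30. Per the study's methods the 3 replicates are independent experiments. Deviations of same-numbered arrays of a line from their group means correlated at 0.186 to 0.688 over 19933 bright probes, and at 0.048 to 0.297 over all probes, where 23.2% of ratios are exactly 0. All 12 pairs correlated best with their own number, so the numbers were taken to pair the arrays. The fit had no replicate block, and p-values with one are given where it changed a call.

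Alternatives were normexp background correction (offset 50) with loess or median centring, other scalings, filters on dim probes, outlier spots kept, 1 probe per gene, the replicate number or the slide as a block, each line or siRNA alone, the methods' t-test, and leaving out each replicate of each line. The comparison within shared slides, the fit of LGMN in OCI-Ly3 by itself and the promoter string CTGATGATG were added after seeing the data. No depth applies to arrays, and no member spot was saturated. One gene of the marker lists is not reported here.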

Additional observations from a re-analysis of the deposited data

Results flagged for a closer look

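Of 74 groups of 6 arrays (each member and FOXP1 probe in each line), 2 held an array far from the others, and chance alone marks about 1 in 20. HLA-DOA A_24_P354800 stood at 0.131 on the K422 array of siFOXP1 #1 replicate 1, against -0.255 to -0.140 on the other 5 arrays. HLA-DOB A_24_P911788 stood at -1.21 on the HBL-1 array of siFOXP1 #2 replicate 2, against 0 to 0.413 on the others, with neither channel well above background on any of them.

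Responses that differed between lines by a test of the difference itself were the following. Between the ABC-DLBCL and GCB-DLBCL lines CD74 differed by 0.60, HLA-DMA A_23_P42306 by 0.53, HLA-DMB by 0.72 on A_24_P481844 and 0.69 on A_32_P351968, HLA-DOA A_24_P354800 by 0.54 and HLA-DOB A_23_P30736 by 0.54. Between HBL-1 and K422 CD74 differed by 0.76, HLA-DMA A_23_P42306 by 0.53, HLA-DMB by 0.80 on A_24_P481844 and 0.63 on A_32_P351968, HLA-DOB A_23_P30736 by 0.92, IFI30 by 0.78 and CTSL2 by -0.82. Between OCI-Ly3 and DB HLA-DMA differed by 0.54 on A_23_P42306 and 0.55 on A_24_P50245, HLA-DMB by 0.64 on A_24_P481844 and 0.75 on A_32_P351968, and HLA-DOA by 0.61 on A_24_P354800 and 0.63 on A_32_P356316. The 3 comparisons share arrays and are not independent of each other, and their tests measure spread between arrays, not between lines of a subtype.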

How the results depend on the processing

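Across 1108 recomputed values of single called probes, 1004 kept their call, 104 lost it and 0 changed direction. CD74 in HBL-1 (0.72 to 1.04) and OCI-Ly3 (0.62 to 0.84), HLA-DOB A_23_P30736 in HBL-1 (0.59 to 1.35), HLA-DMB A_32_P351968 in OCI-Ly3 (0.68 to 0.79) and IFI30 in K422 (-0.99 to -0.65) were called under every alternative that gave them a value. The cause of the changes that follow was not tested. With normexp background correction and loess the count of called member probes was 1 in K422 and 3 in HBL-1, against 2 and 5. Over all probes that setting called 190 higher and 124 lower in K422 (951 and 793 in the main fit). In HBL-1 it called 831 and 374 (2272 and 1777). With normexp and median centring the count of members was 1 in K422, 3 in HBL-1, 3 in OCI-Ly3 (against 7) and 1 between subtypes (against 6). Over all probes that setting called 92 higher and 471 lower in K422, and 180 and 2485 in HBL-1. In OCI-Ly3 it called 194 and 148 of all probes (1219 and 674 in the main fit), and between subtypes 84 and 61 (555 and 336). With siFOXP1 #1 alone the count of members was 3 in HBL-1 and 3 between subtypes, and with siFOXP1 #2 alone 1 in K422 and 2 in OCI-Ly3. Over all probes siFOXP1 #1 alone called 1270 higher and 898 lower in HBL-1, and 131 and 89 between subtypes. For siFOXP1 #2 alone these were 468 and 384 in K422, and 628 and 333 in OCI-Ly3. With the brightest probe for each gene the count of members was 1 in K422, and FOXP1 was called in 4 of 4 tests against 8 of 8. For siCtrl levels between HBL-1 and K422, normexp and loess before scaling gave 2 against 5. Leaving out a replicate gave 2 to 3 calls in K422, 3 to 5 in HBL-1, 6 to 8 in OCI-Ly3, 4 to 8 between subtypes, and for siCtrl levels 10 to 11 between OCI-Ly3 and DB and 4 to 5 between HBL-1 and K422. Without HBL-1 replicate 1, HBL-1 had 3 calls, and the differences between subtypes for HLA-DOA A_24_P354800 and HLA-DOB A_23_P30736 were lost. The HLA-DOB difference was also lost without DB replicate 2 or K422 replicate 1, and LGMN in OCI-Ly3 without any replicate of that line. DB and the difference between siRNAs stayed at 0 calls throughout. With normexp and median centring 13 of 41000 probes were called higher and 41 lower in DB. Between siRNAs that setting called 1 probe in K422 and 0 in DB, HBL-1 and OCI-Ly3, so a count of 0 members says little there.

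With the replicate block (random) the counts were 6 in OCI-Ly3, 4 in HBL-1, 2 in K422, 0 in DB and 6 between subtypes. It ended the calls of LGMN in OCI-Ly3, of HLA-DOA A_24_P332981 in HBL-1 and of HLA-DMB A_24_P481844 between OCI-Ly3 and DB, and no other member call in the response to silencing. Of all calls the share that was higher was 64.4% in OCI-Ly3, 56.1% in HBL-1, 54.5% in K422 and 61.0% in DB. In that order it was 75.6%, 69.0%, 60.5% and 57.6% with normexp and loess, 56.7%, 6.75%, 16.3% and 24.1% with normexp and median centring, and 47.4%, 51.7%, 43.6% and 23.7% with the authors' log2 values. Between subtypes it was 62.3%, 71.2%, 57.9% and 70.9%. Those values moved the median of all probes by up to -0.109, in HBL-1. Probes near background, LGMN outside OCI-Ly3 above all, carry no usable ratio.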
